A study of Mus musculus with 6 samples.

Results

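The comparison described here sets 3T3-L1 adipocytes exposed to ritonavir together with dimethyl sulfoxide (DMSO) against 3T3-L1 adipocytes exposed to ethanol. It uses 2 of the 6 arrays of the series, chosen by their labels, and the measure is the log2 value on the ritonavir and DMSO array minus the log2 value on the ethanol array. 3T3-L1 is a clonal mouse preadipocyte line that accumulates fat in culture. In every group the cells were induced for differentiation with insulin, 3-isobutyl-1-methylxanthine and dexamethasone, and then received insulin with the treatment for 5 days. The ethanol cells, the vehicle control of the first experiment, received ethanol at 0.1%. The ritonavir and DMSO cells belong to a second experiment and received ritonavir at 20 µM with DMSO at 0.1%, the vehicle of the fatty acids tested there. The other arrays of the first experiment are ritonavir at 20 µM and tenofovir at 1 µM, and those of the second are ritonavir at 20 µM with either the c9,t11 or the t10,c12 isomer of conjugated linoleic acid (CLA) at 100 µM. The RNA of 4 replicate experiments was pooled and read on 1 array for each group, so no spread between replicates can be given and nothing was tested. The 2 arrays differ in the drug, the vehicle and the experiment, and these cannot be told apart. Whether the cells of the second experiment also received ethanol is not stated in the labels.

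Ritonavir is an inhibitor of the HIV protease, and drugs of this class are known for loss of subcutaneous fat, insulin resistance and raised blood lipids in treated patients. In fat cell differentiation, C/EBP factors induced by the hormonal cocktail switch on Pparg and Cebpa, which together drive the genes for fatty acid uptake, triglyceride storage, insulin-stimulated glucose transport and secreted adipokines. Ritonavir is also a strong inhibitor of drug-metabolising cytochromes and of drug efflux pumps.

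The probe sets named 18194 genes. Of these, 12087 were called detected, with a value at or above the detection level with ethanol, with ritonavir and DMSO, or both. That level is the median of all values in the table, 6.55. The medians of the 6 arrays lay between 6.54 and 6.56, which the authors' normalization brings about, and the 3′ and 5′ control probe sets of actin differed by 0.193 to 0.544, with 0.318 on the ethanol array and 0.385 on the ritonavir and DMSO array. Over all probe sets the 2 arrays correlated at 0.988, and the ethanol and tenofovir arrays at 0.998. The labelled cell type was checked against its markers. Adipoq, which encodes adiponectin, Fabp4, the fatty acid-binding protein of fat cells, and Lpl, the lipoprotein lipase, read 14.79, 14.89 and 14.92 with ethanol and 14.64, 14.92 and 14.95 with ritonavir and DMSO. These values lie close to the highest in the table, 15.01, where the response of an array can flatten, and whether it did was not tested. These genes do not stand for all adipocyte markers. Of the 19 detected, 12 were at least 2-fold lower with ritonavir and DMSO, and the median was -1.57, as described below. Of the markers of other cell types, 6 of 17 for macrophages, 5 of 12 for endothelium, 5 of 18 for muscle, 4 of 12 for bone and cartilage and 7 of 15 for epithelium were detected. The macrophage genes Adgre1, Itgam and Ptprc, the endothelial genes Pecam1 and Cdh5, the muscle genes Myod1 and Myog and the epithelial gene Cdh1 were not. The detected ones included the epithelial adhesion gene Epcam, at 10.25 with ethanol and 9.49 with ritonavir and DMSO, the muscle filament gene Des, at 8.98 and 8.63, Cd14, a coreceptor of myeloid cells, at 7.90 and 8.81, and Eng, an endothelial coreceptor, at 8.30 and 8.33. The Epcam value comes from a probe set of a type that can cross-hybridise with other transcripts, and its other probe set was not detected.

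The array of ritonavir with DMSO differed from the ethanol array in a limited part of the transcriptome. Of the detected genes, 85.6% lay within 1.5-fold and the median difference was 0.02. In all, 552 genes, or 4.57%, were at least 2-fold apart, which is 1 on the log2 scale. Of these, 184 were higher (1.52% of the detected genes) and 368 were lower (3.04%) with ritonavir and DMSO. At least 4-fold differences numbered 13 upward and 62 downward, and at least 8-fold differences 2 upward and 13 downward. Some of these differences rest on a value under the detection level, and with such values raised to it 160 genes were higher and 337 lower by at least 2-fold. The robust SD of the difference over detected genes was 0.332. It was 0.112 between the tenofovir and ethanol arrays and 0.440 between the arrays of ritonavir alone and ethanol, all of which share the ethanol array.

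**Figure D1:**
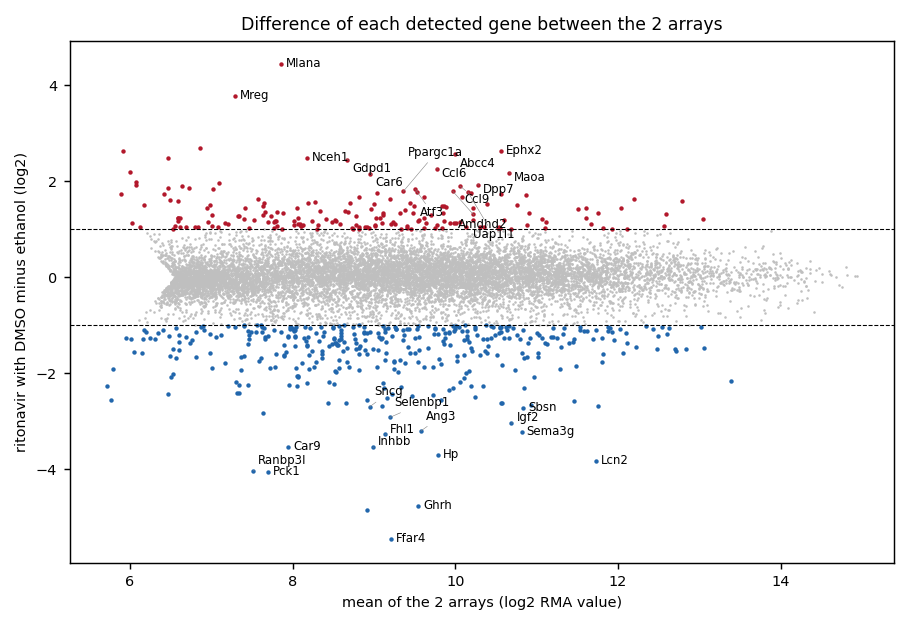
Difference between the array of ritonavir with DMSO and the ethanol array (y axis, log2) against the mean of the 2 arrays (x axis, log2 RMA value). Each point is 1 of 12087 detected genes, with the 184 at least 2-fold higher in red and the 368 at least 2-fold lower in blue beyond the dashed lines, and labels on the 15 largest differences each way among genes without a clone-type symbol, ranked with low values raised to the detection level. The downward points reach further from 0 than the upward ones.

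Ffar4, the receptor through which fat cells sense long-chain fatty acids, had the largest difference of all detected genes. It read 11.94 with ethanol and 11.92 with tenofovir, against 6.49 with ritonavir and DMSO, 5.63 with ritonavir alone, 6.62 with c9,t11-CLA and 5.89 with t10,c12-CLA. The difference was -5.45, or -5.38 with the low value raised to the detection level, and the 4 arrays with ritonavir lay far below the other 2. Ghrh, which encodes growth hormone-releasing hormone, was 11.93 and 11.57 without ritonavir and 7.16, 6.73, 7.01 and 6.41 with it, with DMSO, alone, with c9,t11-CLA and with t10,c12-CLA in that order, and differed by -4.77 in the comparison with ethanol. Lcn2, the secreted lipid carrier lipocalin 2, differed by -3.83, from 13.65 to 9.82, and read 9.42 with ritonavir alone. The plasma haemoglobin-binding protein gene Hp differed by -3.69, Inhbb, which encodes an activin subunit, by -3.54, the LIM protein gene Fhl1 by -3.27, and the semaphorin gene Sema3g and Ang3, of the angiogenin family of ribonucleases, by -3.21 each. A second probe set of Inhbb differed by only -0.90. Igf2, the gene of insulin-like growth factor 2, read 12.21 with ethanol, 12.32 with tenofovir, and 9.17, 9.20, 9.27 and 8.75 with ritonavir and DMSO, ritonavir alone, c9,t11-CLA and t10,c12-CLA, so that the 4 ritonavir arrays were nearly level. The remaining genes among the 15 with the largest downward differences were Pck1, Car9, Ranbp3l, Selenbp1, Sbsn and Sncg, with differences between -4.06 and -2.70. Of these 15, Ffar4, Pck1, Car9 and Ranbp3l were under the detection level on the array of ritonavir with DMSO. Genes with clone-type symbols were left out of this ranking. Among them 2610528A11Rik differed by -4.84 and was also under the level on that array.

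Mlana had the largest upward difference. It encodes melan-A, a membrane protein of melanosomes, which are organelles related to lysosomes. It read 5.64 with ethanol and 5.40 with tenofovir, both under the detection level, and 10.07, 9.93, 9.83 and 9.22 with ritonavir and DMSO, ritonavir alone, c9,t11-CLA and t10,c12-CLA. The difference was 4.43, or 3.52 with the ethanol value raised to the detection level. Mreg, the gene of melanoregulin, another protein of melanosomes and related organelles, went from 5.41 to 9.18, a difference of 3.77, or 2.63 from the detection level. Ephx2, the soluble epoxide hydrolase that breaks down epoxides of fatty acids, read 9.24 with ethanol and 9.06 with tenofovir, and 11.87, 11.67, 11.83 and 10.98 in the same order of ritonavir arrays. Abcc4, an efflux pump for organic anions and drugs, read 8.71 and 8.84 without ritonavir, and 11.27, 11.03, 10.89 and 11.32 with it. Both genes were higher on every ritonavir array than on either other array, by 2.63 and 2.56 in the comparison with ethanol. Nceh1, a hydrolase of cholesterol esters, differed by 2.49 (1.36 to 2.50 over its 3 detected probe sets), the phosphodiesterase gene Gdpd1 by 2.45, the chemokine genes Ccl6 and Ccl9 by 2.26 and 1.90, the monoamine oxidase Maoa by 2.17 and the secreted carbonic anhydrase Car6 by 2.15. The lysosomal peptidase Dpp7, the stress-induced transcription factor Atf3, the amino sugar enzyme Amdhd2, Uap1l1 and Ppargc1a, a coactivator of mitochondrial genes, lay between 1.78 and 1.93.

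The 46 gene lists compared below are each described by the number of detected members at least 2-fold higher or lower and by the median difference of the detected members, beside 1.52%, 3.04% and 0.02 for all detected genes. Where members above or below 0 are counted, 52.2% of all detected genes were above 0. The RNA came from whole cultures, in which fewer cells of a type and less RNA per cell cannot be told apart.

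**Figure D2:**
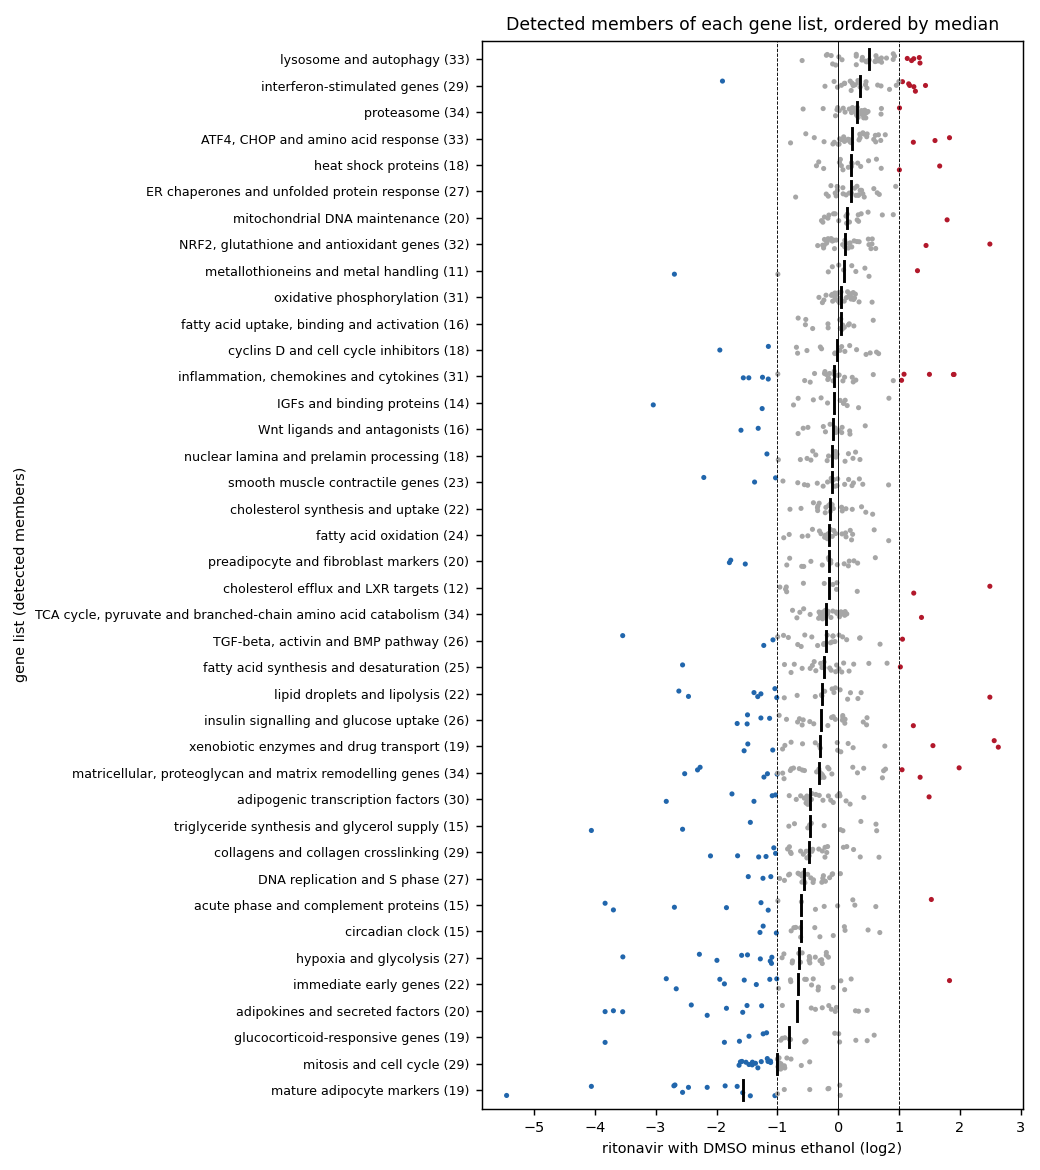
Differences between ritonavir with DMSO and ethanol (x axis, log2) for the detected members of each gene list with at least 10 of them (y axis, number detected in brackets), 1 point per gene. Black bars are list medians, red and blue points are at least 2-fold higher and lower, and vertical jitter has no meaning. Medians run from -1.57 for mature adipocyte markers and -1.0 for mitosis to 0.51 for lysosome and autophagy.

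The markers of mature adipocytes ranged from members far lower with ritonavir and DMSO to members at similar measured values on both arrays. The median of the 19 detected markers was -1.57. At least 2-fold lower were 12 of them (63.2%), and 0 were at least 2-fold higher. With low values raised the median was -1.44 and 11 were lower, and averaging each gene over its probe sets gave a median of -1.02. Besides Ffar4, the lower members included Pck1, the cytosolic phosphoenolpyruvate carboxykinase that supplies glycerol for triglycerides (-4.06, or -3.17 from the detection level), the synuclein gene Sncg (-2.70), the carbonic anhydrase Car3 (-2.68) and Pnpla3, a lipase of lipid droplets (-2.56). Slc2a4, the insulin-responsive glucose transporter, read 11.84 with ethanol, 11.72 with tenofovir, 10.18 with ritonavir and DMSO, 8.10 with ritonavir alone, 10.34 with c9,t11-CLA and 8.30 with t10,c12-CLA. The difference of -1.66 with DMSO stands beside -3.74 for ritonavir alone, and both use the same ethanol array. At the other end, the fatty acid transporter Cd36 differed by -0.17, Adipoq by -0.16, and Lpl and Fabp4 by 0.03 each. Another probe set of Fabp4 differed by -1.0, and the values of Adipoq, Lpl and Fabp4 lie near the top of the scale. For ritonavir alone the same list had a median of -4.32, and Adipoq differed by -4.61 and Cd36 by -3.09. Leptin (Lep) was near the detection level on the ethanol array, at 6.94, and under it with ritonavir and DMSO, with a difference of -0.38 from the level.

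**Figure D3:**
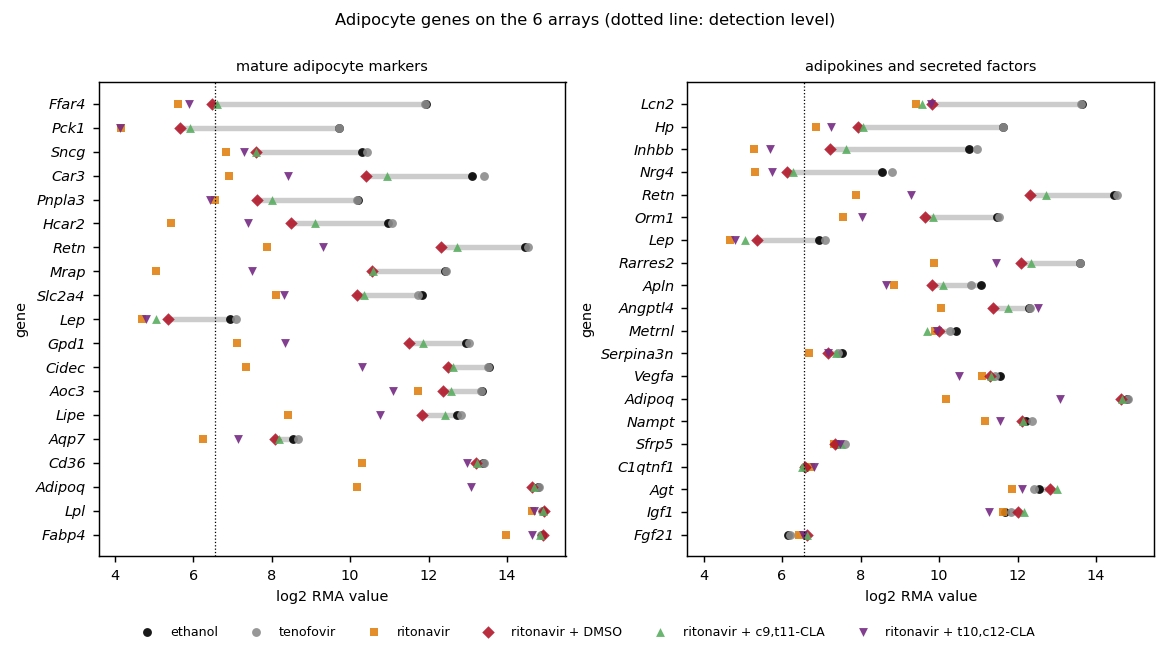
Log2 RMA values (x axis) on the 6 arrays, 1 marker per array, for the detected mature adipocyte markers (left) and adipokines and secreted factors (right), ordered by the difference between ritonavir with DMSO and ethanol, which a grey bar joins. Ffar4, Pck1 and Lcn2 lie low on all 4 ritonavir arrays, Lpl and Fabp4 lie high on all 6, and Adipoq is at 14.64 with ritonavir and DMSO against 10.18 with ritonavir alone.

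Among 30 detected adipogenic transcription factors, 5 differed by at least 2-fold downward and 1 upward, with 24 below 0 and a median of -0.46. Egr2, an early factor of the cascade, read 9.05 with ethanol and 6.22 with ritonavir and DMSO, which is under the detection level, a difference of -2.83, or -2.49 from the level. Klf15, which acts late in differentiation and is induced by glucocorticoids, differed by -1.75, and Ebf2, a factor that marks brown and beige precursors, by -1.38. Pparg read 12.97 with ethanol, 12.95 with tenofovir, 11.89 with ritonavir and DMSO, 10.48 with ritonavir alone, 12.09 with c9,t11-CLA and 11.25 with t10,c12-CLA, with a difference of -1.08. Cebpa read 12.18, 12.21, 11.49, 8.68, 11.86 and 10.65 in the same order, with a difference of -0.69 that is under 2-fold. For both factors the array of ritonavir with DMSO lay between the arrays without ritonavir and the array of ritonavir alone. The member at least 2-fold higher was Id2, an inhibitor of basic helix-loop-helix factors, at 1.49.

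The 20 detected adipokines and other secreted proteins had a median of -0.68, and 9 of them were lower by at least 2-fold and 0 higher, against 8 and a median of -0.41 once low values were raised. They included Lcn2, Hp, Inhbb, the neuregulin Nrg4 (-2.41, or -2.0 from the detection level), resistin (Retn, -2.15), orosomucoid (Orm1, -1.84) and chemerin (Rarres2, -1.5). Retn read 14.47 with ethanol, 12.31 with ritonavir and DMSO and 7.89 with ritonavir alone. Igf1, the gene of insulin-like growth factor 1, differed by 0.33 and the angiotensinogen gene Agt by 0.28. The acute phase and complement list overlaps with this one, and 6 of its 15 detected members were at least 2-fold lower and 1 higher, and the median was -0.60. Steap4, a metalloreductase of fat cells, differed by -2.69, but a second probe set differed by -0.04. The higher member was Itih4, a protease inhibitor of the acute phase, at 1.53.

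In the synthesis and storage of triglycerides most genes were below 0, with 10 of 15 in the synthesis list and 16 of 22 in the lipid droplet list. The largest differences were those of a few genes. Of 15 detected genes of triglyceride synthesis and glycerol supply, 3 were at least 2-fold lower and 0 at least 2-fold higher, and the median was -0.47. These were Pck1, Pnpla3 and the glycerol phosphate dehydrogenase Gpd1 (-1.44). Agpat2, the acyltransferase whose loss causes inherited lipodystrophy, read 12.39 with ethanol, 12.46 with tenofovir, 13.02 with ritonavir and DMSO, 10.69 with ritonavir alone, 13.02 with c9,t11-CLA and 11.95 with t10,c12-CLA. Gpat3, which starts the pathway, read 11.78, 11.88, 12.41, 10.02, 12.53 and 11.15 in that order. Both genes were highest on the arrays of ritonavir with DMSO or with c9,t11-CLA and lowest on the array of ritonavir alone. Of 22 detected genes of lipid droplets and lipolysis, 7 were at least 2-fold lower and 1, Nceh1, was higher, and the median was -0.27. The lower members included the monoglyceride lipase Mgll (-2.62, with -0.15 in another of its 4 detected probe sets), the antilipolytic receptor Hcar2 (-2.46) and the carboxylesterase Ces1f (-1.38). Cidec, which makes lipid droplets fuse, differed by -1.04 here and by -6.20 with ritonavir alone.

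Fatty acid synthesis showed smaller differences. Of 25 detected members, 1 was at least 2-fold lower, Pnpla3, and 1 higher, the elongase Elovl6, at 1.02, and the median was -0.23. Fasn, the fatty acid synthase, differed by -0.40 and the desaturase Scd1 by -0.72, although a second probe set of Scd1 differed by -2.35. None of 16 detected genes of fatty acid uptake, binding and activation was 2-fold apart, and their median was 0.04. Likewise 0 of 22 genes of cholesterol synthesis and uptake were 2-fold apart, and the median was -0.13. The squalene epoxidase Sqle, at -0.79, had the largest downward difference among them and the isomerase Ebp, at 0.57, the largest upward one. In the list of cholesterol efflux and liver X receptor targets, 2 of 12 members were at least 2-fold higher. They were Nceh1 and Npc1, the lysosomal cholesterol exporter (1.24), while the cholesterol pump Abca1 read 12.44 with ethanol and 12.41 with ritonavir and DMSO.

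Few members of the mitochondrial lists were 2-fold apart from ethanol. Of 31 detected subunits in the oxidative phosphorylation list, 0 were 2-fold apart, 18 were above 0 and 13 below, and the median was 0.04. They ranged from -0.32 for Uqcrfs1 of complex III to 0.56 for Ndufb8 of complex I. This does not hold for every mitochondrial gene. Cox6a2, a cytochrome oxidase subunit outside that list, differed by 1.62, from 8.39 to 10.01. Of 24 genes of fatty acid oxidation, 0 were 2-fold apart, and the median was -0.15, and Cpt1a, which admits fatty acids to mitochondria, differed by 0.12. The largest downward differences in that list were those of the receptor Ppard (-0.90, with 0.09 in a second probe set) and the acyl-CoA dehydrogenase Acadvl (-0.81). Of 34 genes of the citric acid cycle and branched-chain amino acid breakdown, 1 was at least 2-fold higher and 0 lower, with 25 below 0 and a median of -0.20. That gene was Bcat1, the cytosolic branched-chain aminotransferase, at 1.37. Ppargc1a read 8.47 with ethanol, 8.51 with tenofovir, and 10.25, 10.50, 10.13 and 9.80 with ritonavir and DMSO, ritonavir alone, c9,t11-CLA and t10,c12-CLA. All 5 of its detected probe sets were higher with ritonavir and DMSO, by 1.79 to 2.28. In the list of mitochondrial DNA maintenance, to which it belongs, it alone of 20 members was 2-fold apart, and the median was 0.14, followed by the ribonucleotide reductase subunit Rrm2b at 0.90 and the inner membrane protein gene Mpv17 at 0.72. Of 6 detected brown and beige adipocyte genes, Ppargc1a was at least 2-fold higher, while Ebf2 and the cytochrome oxidase subunit Cox7a1 (-1.08) were lower.

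All 27 detected members of the hypoxia and glycolysis list were below 0, 9 of them at least 2-fold, and the median was -0.65. The list combines targets of hypoxia-inducible factors with glycolytic enzymes. Car9, a carbonic anhydrase induced by low oxygen, went from 9.71 to under the detection level, a difference of -3.54, or -3.16 from the level. Ndrg1 differed by -2.28, although another of its 5 detected probe sets differed by -0.36, and Ankrd37, a further hypoxia-induced gene, by -1.99. Slc2a1, the basal glucose transporter, read 13.45 with ethanol, 13.24 with tenofovir and 11.96 with ritonavir and DMSO, and the 4 ritonavir arrays lay together between 11.96 and 12.05. Of 26 genes of insulin signalling and glucose uptake, 5 were at least 2-fold lower and 1 higher, and the median was -0.29. The lower members were Slc2a4, Slc2a1, the caveolar coat gene Cavin1 (-1.5, with 0.14 in another probe set), the phosphodiesterase Pde3b (-1.27) and the glycogen synthase Gys1 (-1.13). The higher one was Trib3, a stress-induced pseudokinase that binds Akt, at 1.23.

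All 29 detected genes of mitosis were below 0, 14 of them (48.3%) by at least 2-fold. Their median was -1.0, against -2.20 for ritonavir alone on the same ethanol array. Cdc20, an activator of the anaphase-promoting complex, read 11.32 with ethanol, 10.87 with tenofovir, 9.69 with ritonavir and DMSO, 8.79 with ritonavir alone, 10.16 with c9,t11-CLA and 9.57 with t10,c12-CLA. Cyclin B2 (Ccnb2) differed by -1.61 and the centromeric histone Cenpa by -1.58. With tenofovir in place of ethanol as the reference, and c9,t11-CLA in place of DMSO, the median of the list was -0.57 and 2 of its genes were at least 2-fold lower. Of 27 genes of DNA replication, 3 were at least 2-fold lower and 26 below 0, and the median was -0.56. These were the thymidine kinase Tk1 (-1.48), Uhrf1, which maintains DNA methylation (-1.24, with -0.63 in its second probe set), and the licensing factor Cdt1 (-1.11). D cyclins and cell cycle inhibitors had a median of -0.01, with 2 of 18 at least 2-fold lower, the antiproliferative gene Btg2 (-1.95) and the inhibitor Cdkn2c (-1.15).

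Lysosomal genes formed the list with the highest median, 0.51. Of 33 detected members of the lysosome and autophagy list, 5 were at least 2-fold higher and 0 lower, and 27 were above 0. Ctsk, a cysteine protease, read 8.65 with ethanol, 8.80 with tenofovir, and 9.99, 10.86, 9.99 and 10.69 with ritonavir and DMSO, ritonavir alone, c9,t11-CLA and t10,c12-CLA. Gla, the alpha-galactosidase, read 9.18 with ethanol, 9.15 with tenofovir and 10.52 with ritonavir and DMSO, and between 10.35 and 11.36 on the 4 ritonavir arrays. Both were higher on all 4 ritonavir arrays than on the arrays without ritonavir, by 1.34 and 1.33 in the comparison with ethanol. The other members at least 2-fold higher were Npc1 (1.24), the protease gene Ctsl (1.21) and the sialidase Neu1 (1.13). Tfeb, a factor that activates many lysosomal genes, differed by -0.59. Cd68, a lysosomal membrane protein used as a macrophage marker, differed by 1.56, from 6.87 to 8.43. The median of the 6 detected macrophage markers, out of 17 on the array, was -0.02. The summed level of all 17, on the linear scale, was 1311 with ethanol and 1703 with ritonavir and DMSO. This sum includes Cd68 itself and Cd14, which differed by 0.91. The other detected markers were Fcer1g (0.04), Lyz2 (-0.08), Laptm5 (-0.15) and Csf1r (-0.23), so the sum does not show a rise shared by the markers. The part of macrophage markers in the lysosomal values was not tested.

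Many lysosomal genes carry an E-box, CACGTG, that factors of the Tfeb and Mitf family bind. This palindromic motif was searched in promoters from RefSeq, build GRCm38.p6, from 250 bases before to 50 bases after the start of each gene. It was found in 8.09% of 27025 promoters and in 11.6% of the promoters of detected genes. It was found in 29 of 144 genes at least 2-fold higher with a promoter in the table (20.1%), in 25 of 277 genes at least 2-fold lower (9.03%) and in 10 of 27 genes of the lysosome list (37.0%), a list that was drawn up from genes known to be regulated in this way and is no independent evidence. The higher genes include members of that list, such as Gla and Ctsl, and which factors bind these promoters was not tested. Neither the promoter of Ctsk nor that of Neu1 contained these letters, and those of Ctsl and Gla are shown because they did, with the motif in capitals. For Npc1, also at least 2-fold higher, no promoter result is given here. The Gla promoter lies at chrX:134600956-134601255 on the minus strand and the Ctsl promoter at chr13:64370471-64370770 on the minus strand.
Gla: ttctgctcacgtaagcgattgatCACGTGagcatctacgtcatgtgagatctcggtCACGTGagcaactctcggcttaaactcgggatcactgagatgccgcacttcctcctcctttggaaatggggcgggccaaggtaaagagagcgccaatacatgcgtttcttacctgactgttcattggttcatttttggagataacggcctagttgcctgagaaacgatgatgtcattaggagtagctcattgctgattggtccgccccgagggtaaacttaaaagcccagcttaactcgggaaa
Ctsl: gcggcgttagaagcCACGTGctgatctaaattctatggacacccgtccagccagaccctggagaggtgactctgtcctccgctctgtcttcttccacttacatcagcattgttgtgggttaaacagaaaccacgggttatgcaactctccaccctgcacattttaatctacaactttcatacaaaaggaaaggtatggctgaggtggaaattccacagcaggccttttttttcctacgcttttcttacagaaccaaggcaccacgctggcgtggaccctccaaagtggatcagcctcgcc

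The response to amino acid shortage runs through ATF4 and CHOP (Ddit3), factors that act downstream of stress-activated translation control. Of 33 detected members of this list, 3 were at least 2-fold higher and 0 lower, 26 were above 0, and the median was 0.22. Ddit3 read 11.99 with ethanol, 12.09 with tenofovir, and 13.58, 13.69, 13.39 and 13.41 with ritonavir and DMSO, ritonavir alone, c9,t11-CLA and t10,c12-CLA, a difference of 1.59. Atf3 read 8.60 and 8.57 without ritonavir and 10.42, 9.70, 10.13 and 10.52 with it, a difference of 1.83, and Trib3 was the other member past 2-fold. The 4 ritonavir arrays lay above the other arrays for both Ddit3 and Atf3. The mTOR inhibitor Ddit4 (-0.78) had the largest downward difference. The letters TGATGNAA, the core of elements bound by C/EBP and ATF dimers, were found on either strand in 4.51% of all promoters, in 2.57% of those of detected genes, in 8 of 144 genes at least 2-fold higher (5.56%) and in 10 of 26 genes of this list (38.5%), which again was drawn up from known targets. The Ddit3 promoter window did not contain them. The DR1 motif, a direct repeat of the kind bound by Pparg with its partner Rxra, was found in 13 of the 27025 promoters and in 0 of the 11 mature adipocyte markers with a promoter in the table. The promoters of Atf3, at chr1:191183284-191183583 on the minus strand, and Trib3, at chr2:152344011-152344310 on the minus strand, are shown with the match in capitals.
Atf3: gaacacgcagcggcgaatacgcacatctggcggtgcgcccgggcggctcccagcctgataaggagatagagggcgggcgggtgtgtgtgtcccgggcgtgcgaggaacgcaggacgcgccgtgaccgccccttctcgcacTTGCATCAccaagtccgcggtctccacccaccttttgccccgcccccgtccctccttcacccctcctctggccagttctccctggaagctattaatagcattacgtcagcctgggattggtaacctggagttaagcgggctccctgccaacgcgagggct
Trib3: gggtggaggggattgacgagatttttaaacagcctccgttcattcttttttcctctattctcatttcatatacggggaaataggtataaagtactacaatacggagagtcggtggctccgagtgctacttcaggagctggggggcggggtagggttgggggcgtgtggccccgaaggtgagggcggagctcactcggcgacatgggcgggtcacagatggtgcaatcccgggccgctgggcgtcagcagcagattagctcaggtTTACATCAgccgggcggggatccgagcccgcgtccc

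Other stress and protein quality lists showed small shifts. Of 27 genes of endoplasmic reticulum chaperones and the unfolded protein response, 0 were 2-fold apart, 18 were above 0, and the median was 0.22, with Atf6 at 0.94 (0.33 in another of its 3 detected probe sets) and Xbp1 at -0.70. Of 34 proteasome genes, 29 were above 0 and the median was 0.31. The member at least 2-fold higher, Psmb9, is a subunit of the immunoproteasome, induced by interferon, and read 8.24 with ethanol, 9.24 with ritonavir and DMSO and 8.36 with ritonavir alone. Of 18 heat shock genes 2 were at least 2-fold higher, the small chaperone Cryab (1.67) and the factor Hsf2 (1.00, or 0.47 with its ethanol value raised to the detection level, which leaves 1 member), and the median was 0.22. Among 32 antioxidant and glutathione genes, 2 were at least 2-fold higher, the glutathione transferases Gsta3 and Gsta4, and the median was 0.11. Gsta4, which clears products of lipid peroxidation, read 10.88 with ethanol, 12.32 with ritonavir and DMSO and 11.61 with ritonavir alone. Among 19 xenobiotic enzymes and drug transporters, 3 were higher, Ephx2, Abcc4 and the oxysterol hydroxylase Cyp7b1 (1.56), and 3 lower, the monooxygenase Fmo1 (-1.55), the cytochrome P450 Cyp2f2 (-1.49) and the carbonyl reductase Cbr1 (-1.08). In metal handling, 1 of 11 members was at least 2-fold higher and 1 lower, the iron exporter Slc40a1 (1.30, or 0.67 in a second probe set) and Steap4, and the metallothionein Mt1 differed by 0.01.

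The interferon-stimulated list had 29 detected members, of which 6 were 2-fold or more higher, 1 was lower and 25 were above 0, and the median was 0.36. Bst2, which tethers budding viruses, read 9.50 with ethanol, 9.52 with tenofovir, and 10.93, 11.82, 10.88 and 11.68 with ritonavir and DMSO, ritonavir alone, c9,t11-CLA and t10,c12-CLA. Ifit1, which recognises foreign RNA, differed by 1.27 and its relative Ifit3 by 1.24. The lower member was the exonuclease Isg20, at -1.90. The inflammation list had no common direction, with 5 of 31 members at least 2-fold higher, 4 lower and a median of -0.07. Ccl9 and the prostaglandin synthase Ptgs2 (1.89) were higher. Ptgs2 read 5.69 with ethanol, under the detection level, and 7.58 with ritonavir and DMSO. Il6 read 5.42 with ethanol, 5.56 with tenofovir, 6.92 with ritonavir and DMSO, 8.79 with ritonavir alone, 6.36 with c9,t11-CLA and 7.59 with t10,c12-CLA, so that its difference of 1.5 is 0.36 from the detection level. The monocyte chemokine Ccl2 differed by 0.58. The alarmin Il33 was under the detection level with ritonavir and DMSO and differed by -1.56, or -0.27 from the level, which leaves 3 lower members. With low values raised 4 members were higher. The lower members included the chemokines Cxcl13 (-1.47) and Cx3cl1 (-1.24, with 0.10 in its second probe set).

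Of 22 immediate early genes, which respond quickly to growth factors, 8 were at least 2-fold lower and 1, Atf3, was higher, with 18 below 0 and a median of -0.67. Egr3, at 0.21, counts as above 0, but its second probe set differed by -2.52. Fosl1, an AP-1 subunit, read 12.26 with ethanol, 12.11 with tenofovir, 9.60 with ritonavir and DMSO, 7.89 with ritonavir alone, 10.10 with c9,t11-CLA and 10.22 with t10,c12-CLA. Egr1 read 13.49, 13.46, 11.94, 13.07, 12.42 and 12.56 in the same order, lowest on the array of ritonavir with DMSO. Of 19 glucocorticoid-responsive genes, 6 were at least 2-fold lower and 0 at least 2-fold higher, and the median was -0.81. They included Lcn2, the phosphatase gene Dusp1 (-1.87) and Errfi1 (-1.62), an inhibitor of the EGF receptor, while the chaperone Fkbp5 differed by 0.02 and Tsc22d3 by -0.06. Of 15 circadian clock genes, 3 were at least 2-fold lower and 0 at least 2-fold higher, and the median was -0.62. These were the repressors Bhlhe40 (-1.29), Per1 (-1.23) and Per2 (-1.02).

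Of 29 collagens and crosslinking enzymes, 6 were lower by at least 2-fold, 0 were higher by as much and 24 were below 0, and the median was -0.48. Col18a1, a basement membrane collagen, differed by -2.10, Col5a3 by -1.65 and Col1a1, the main fibrillar collagen chain, by -1.31. Of 34 matricellular, proteoglycan and remodelling genes, 6 were at least 2-fold lower and 3 higher, and the median was -0.31. The lower members included the metalloproteinase inhibitor Timp4 (-2.52) and the leucine-rich proteoglycans Prelp (-2.31) and Lum (-2.27). The higher members were the proteases Mmp13 (1.99) and Mmp11 (1.35) and the fibulin Fbln7 (1.05). Mmp13 and Fbln7 were under the detection level on the ethanol array, and of the 3 only Mmp11 was 2-fold higher with such values raised. For ritonavir alone, against the same ethanol array, this list had a median of 0.95 and 17 of its members were at least 2-fold higher, where 4.44% of all detected genes were higher and 6.54% lower by as much. The collagen list had a median of -0.08 there, and the smooth muscle contractile list 0.54 against -0.10 with DMSO.

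Among 23 contractile genes, ritonavir and DMSO had 3 that were lower by at least 2-fold and 0 higher, namely Smtn (-2.21), Tpm2 (-1.37, with -0.54 in another of its 4 detected probe sets) and Myh11 (-1.03). Tagln, which encodes transgelin, read 7.70 with ethanol, 7.86 with tenofovir, 8.52 with ritonavir and DMSO, 11.46 with ritonavir alone, 8.68 with c9,t11-CLA and 9.28 with t10,c12-CLA. Of 20 preadipocyte and fibroblast markers, 3 were at least 2-fold lower and 0 at least 2-fold higher, and the median was -0.16. These were the matrix protein gene Dpt (-1.79), Dlk1 (-1.77) and the stromal membrane protein gene Cd248 (-1.53). In the TGF-beta, activin and BMP list, 3 of 26 were at least 2-fold lower, Inhbb, the activin antagonist Fst (-1.22) and Smad6 (-1.07), and 1 was higher, Id3 (1.06). Among 16 Wnt ligands, receptors and antagonists, Sfrp2 (-1.60) and Lef1 (-1.32) were at least 2-fold lower. Among 14 genes of insulin-like growth factors and their binding proteins, Igf2 and the stanniocalcin gene Stc1 (-1.25) were. Of 18 genes of the nuclear lamina and of prelamin processing, on which HIV protease inhibitors are known to act through the protease Zmpste24, only Lmna was 2-fold apart (-1.17), and its 5 detected probe sets ran from -1.17 to 0.01. Zmpste24 itself differed by 0.24. Epithelial markers had a median of -0.51 over 7 detected members of 15, with the keratin gene Krt19 at -2.41, or -1.96 from the detection level. The medians of endothelial, muscle and bone markers, with 4 or 5 detected members each, lay between -0.25 and -0.10.

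The array of ritonavir with DMSO was also set beside the 3 arrays of the first experiment together. With low values raised to the detection level, 6 genes lay at least 2-fold above all 3 and 17 at least 2-fold below all 3, that is, outside ethanol, tenofovir and ritonavir alone. Dlk1, an inhibitor of fat cell differentiation that is switched off as preadipocytes mature, read 12.68 with ethanol, 12.61 with tenofovir and 12.57 with ritonavir alone, and 10.91, 11.08 and 11.23 with ritonavir and DMSO, c9,t11-CLA and t10,c12-CLA. A second probe set of Dlk1 differed from ethanol by -1.05. The secreted Wnt modulator Sfrp2 read 9.16, 9.25 and 9.64 in the first experiment and 7.56, 7.88 and 8.25 in the second. Lum, which organises collagen fibrils, read 11.48, 11.70 and 10.66 in the first and 9.21, 9.85 and 9.01 in the second. These genes were chosen because ritonavir with DMSO lay outside the arrays of the first experiment. For Lum ritonavir alone also differed from tenofovir, by -1.04. Cacna1g, a calcium channel gene, Tmem45a, Tpm2, Col1a1 and Fst also lay at least 2-fold below all 3 arrays.

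The 6 genes above all 3 arrays of the first experiment were Gsta3, Itih4, Stbd1, Dmxl2, Cyp2c23 and Chchd10. Stbd1, a glycogen-binding protein, read 8.68 with ethanol, 8.56 with tenofovir and 8.64 with ritonavir alone, and 10.08, 9.77 and 9.59 with ritonavir and DMSO, c9,t11-CLA and t10,c12-CLA. Dmxl2, a regulator of the proton pump of vesicles, read 7.64, 7.87 and 7.76 in the first experiment and 9.02, 8.64 and 8.72 in the second. Gsta3 was under the detection level on all 3 arrays of the first experiment and read 7.72, 7.20 and 7.90 in the second. Cyp2c23, an enzyme that makes fatty acid epoxides, read 7.97 with ritonavir and DMSO and 6.69 with ethanol, but 6.65 with t10,c12-CLA, so that here the experiments overlapped. Chchd10, a mitochondrial protein gene, differed from ethanol by 1.07, or 0.32 in its second probe set.

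Some genes differed from ethanol in opposite directions with ritonavir and DMSO and with ritonavir alone. Both comparisons share the ethanol array, and the values are given side by side. Col1a1 read 12.61 with ethanol and 12.49 with tenofovir, 11.30 with ritonavir and DMSO, 13.50 with ritonavir alone, 11.41 with c9,t11-CLA and 11.65 with t10,c12-CLA. The 3 arrays of the second experiment lay below both arrays without ritonavir, and ritonavir alone lay above them. Mgp, an inhibitor of calcification, read 11.64, 11.77, 10.73, 13.14, 10.66 and 10.61 in that order, with differences from ethanol of -0.91 with DMSO and 1.5 with ritonavir alone. The metalloproteinase inhibitor Timp1 (-1.0 and 0.89), the matrix protein Thbs1 (-0.89 and 1.13), Fst (-1.22 and 0.68) and the dipeptidase Dpep1 (-0.82 and 0.98) had the same order of signs. In the other direction, Itih4 read 8.23 with ethanol, 9.76 with ritonavir and DMSO and 7.25 with ritonavir alone, and the interferon-induced gene Ifi27l2a 9.23, 10.33 and 7.14. With tenofovir, c9,t11-CLA and t10,c12-CLA, Itih4 read 8.35, 9.91 and 8.49, and Ifi27l2a 9.73, 10.28 and 9.56. For Ifi27l2a t10,c12-CLA thus lay below tenofovir. Ritonavir alone and ritonavir with DMSO differ in experiment and vehicle, which cannot be told apart.

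**Figure D4:**
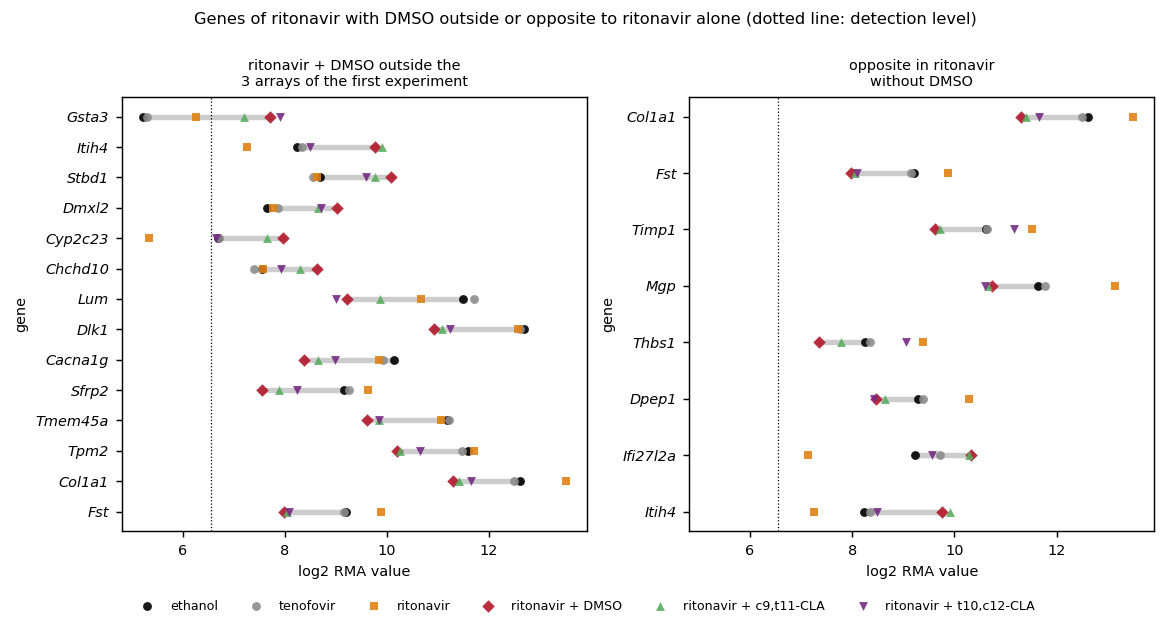
Log2 RMA values (x axis) on the 6 arrays, 1 marker per array, for named genes at least 2-fold outside all 3 arrays of the first experiment (left) and genes with opposite differences from ethanol in ritonavir alone (right). A grey bar joins ethanol and ritonavir with DMSO. For Dlk1, Sfrp2 and Stbd1 the arrays of the second experiment do not overlap with those of the first, and for Col1a1 and Mgp ritonavir alone lies on the other side of ethanol.

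The genes at least 2-fold apart were then read on pairs of arrays that the comparison did not use, chosen after the data were seen. On the arrays of ritonavir alone and tenofovir, which belong to the first experiment and differ in the drug, 176 of the 184 genes higher with ritonavir and DMSO were also above 0, against 51.4% of all detected genes, and 134 (72.8%) were at least 2-fold higher, against 4.64% of all detected genes. Of the 368 lower genes, 355 were below 0, against 48.5%, and 300 (81.5%) were at least 2-fold lower, against 6.63%. In the opposite direction 3 of the higher genes, Cyp2c23, Ifi27l2a and Itih4, and 1 of the lower genes, Col1a1, were at least 2-fold apart. The median of the higher genes was 1.35 on this pair and 1.23 in the comparison with ethanol, and that of the lower genes -1.96 and -1.35. The reference of this pair, tenofovir, correlated with ethanol at 0.998 and shares its experiment. The pair is therefore not independent of the comparison with ethanol. On the arrays of ritonavir with c9,t11-CLA and tenofovir, which differ in experiment as well, all 184 and all 368 lay on the same side of 0, against 55.8% and 44.2% of all detected genes, and 116 (63.0%) and 227 (61.7%) were at least 2-fold apart, against 1.09% and 2.03% of all detected genes. Over all probe sets the array of c9,t11-CLA correlated with that of ritonavir with DMSO at 0.997, and tenofovir with ethanol at 0.998. This pair could therefore hardly differ from the compared one, and it repeats the same difference in drug and experiment. With t10,c12-CLA in place of c9,t11-CLA the numbers at least 2-fold apart were 130 (70.7%) and 296 (80.4%), against 2.91% and 4.87%. With 1 array per group these counts are a description.

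**Figure D5:**
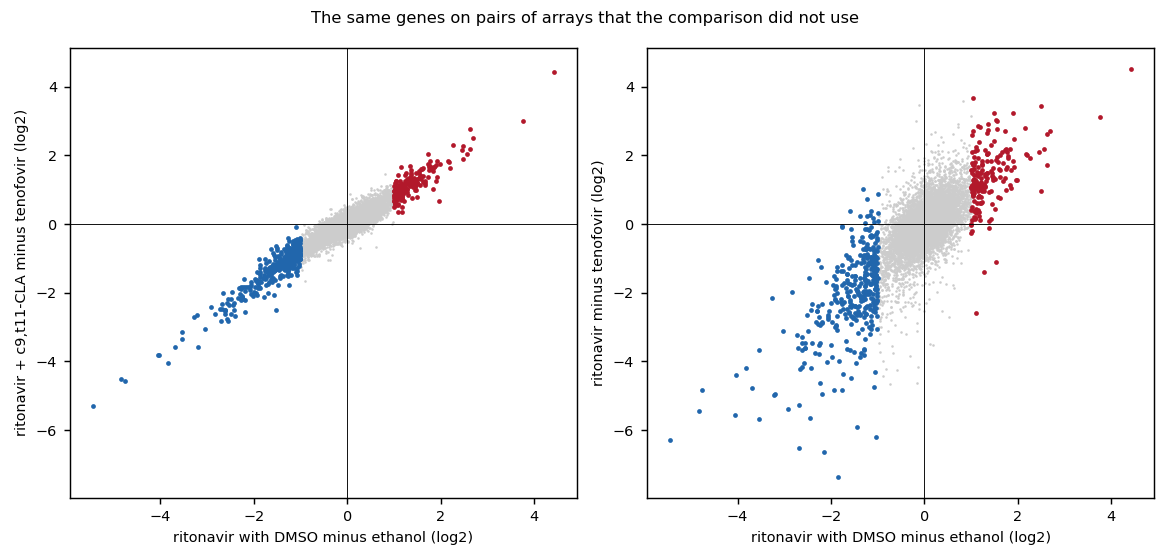
Difference between ritonavir with DMSO and ethanol (x axis, log2) against the difference on pairs of arrays it does not use (y axis, log2), ritonavir with c9,t11-CLA minus tenofovir (left) and ritonavir minus tenofovir (right), 1 point per detected gene. Red and blue mark the 184 genes at least 2-fold higher and the 368 at least 2-fold lower with ritonavir and DMSO, of which all lie on the same side of 0 on the left, and 176 and 355 on the right.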

How the data were processed

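Total RNA of 3T3-L1 cells, pooled from 4 replicate experiments per group, was amplified, labelled with biotin and read on 1 Affymetrix mouse array for each, per the labels' protocols. The authors deposited log2 values of 45101 probe sets on 6 arrays. Affymetrix Expression Console and RMA are named in the submitters' processing notes without a version. This method equalises the distributions of the arrays, so a shift shared by most genes would not be visible.

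Probe sets were named through the array platform's annotation: 34958 had 1 symbol, 932 with several were left out, and 9211 were missing from it. Where a gene had several sets, as 7341 of the 12087 detected genes did, the set with the highest mean over all 6 arrays was taken. A gene was detected if its value was 6.55, the median of all values, or more with either treatment compared. The log2 difference was computed for each gene, and no test was possible with 1 array per group; the number of arrays limits the precision. Counting was checked on simulated data. The tools were Python 3.11.15 with pandas 2.3.3, numpy 2.4.6, statsmodels 0.14.6, scipy 1.17.1 and matplotlib 3.10.9.

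The comparison and the 46 lists were chosen with earlier results of these data known. The genes named are, by rule, the 15 largest differences each way of at least 2-fold (low values raised to the level for ranking), up to 3 members each way per list, up to 8 each way at least 2-fold outside the first experiment's arrays, up to 8 opposite to ritonavir alone by at least 1.5-fold, and 18 fixed genes. Clone-type symbols were counted only, apart from 2610528A11Rik. Car3, Cd36, Cidec, Cox6a2, Ctsl, Egr1, Fkbp5, Gys1, Mt1, Neu1, Nrg4, Orm1, Pde3b, Rarres2, Retn and Tsc22d3 were named after their values were seen. Of all 120 genes named by the rule with several detected probe sets, 23 had a probe set of opposite sign. Of the 47 that were at least 2-fold apart, 3 had a probe set of opposite sign and 0 had one 2-fold apart in the opposite sense.

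Other settings tried were the mean over a gene's probe sets, only sets without cross-hybridising suffixes, no detection level or one at 8.77, low values raised, renewed quantile normalization, removal of a lowess trend (span 0.3), tenofovir or the mean of ethanol and tenofovir as control, and thresholds of 1.5-fold and 3-fold. Detection on any of the 6 arrays was added after seeing the data.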

Additional observations from a re-analysis of the deposited data

How the results depend on the processing

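With 1 array per group and pooled RNA, no spread between replicates is known, and a difference near the threshold cannot be told from array noise; values under the detection level have no order. At the level of 8.77 the endothelial and bone lists had no member left and gave no value. No paired analysis was possible because each group has 1 array and the arrays share a single replicate number. The count of genes at least 2-fold higher was 119 with the detection level at 8.77, where fewer genes were counted. At a threshold of 1.5-fold, 791 genes were higher and 948 lower, and at 3-fold 41 and 127. The median of the mature adipocyte markers, -1.57, was -1.02 with the mean of all probe sets and -1.44 with low values raised. The median of the mitosis list, -1.0, was -0.88 with the mean of all probe sets, -1.11 without cross-hybridising probe sets and -1.15 with the detection level at 8.77. The cause was not tested. Of 122 named genes at least 2-fold apart, 114 were so with tenofovir as control, 120 after renewed quantile normalization, 119 without the lowess trend and 115 with low values raised, and 104 of the 119 with a value were so with the mean of all probe sets. In these alternatives 0 of the named genes at least 2-fold apart changed sign, and between 0 and 4 of the 46 list medians did.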

Other observations

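Further genes at least 2-fold apart, outside the gene lists and chosen after their values were seen, encode, among others, metabolite receptors, lysosomal proteins and metabolic enzymes. Hcar1, the lactate receptor through which fat cells restrain lipolysis, read 9.63 with ethanol, 9.64 with tenofovir, 7.40 with ritonavir and DMSO, 5.02 with ritonavir alone, 7.81 with c9,t11-CLA and 6.72 with t10,c12-CLA. Klb, the coreceptor for the hormone FGF21, read 10.44, 10.51, 8.01, 6.33, 8.20 and 6.46 in the same order. For both receptors the array of ritonavir with DMSO lay between ritonavir alone and the arrays without the drug. The apolipoprotein gene Apoc1 differed by -2.57 and Dusp6, a phosphatase that dampens ERK signalling, by -1.81 from ethanol.

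Outside the lysosome list, Creg1, a secreted lysosomal glycoprotein, read 10.01 with ethanol and 11.73 with ritonavir and DMSO, and its second probe set differed by 1.10. Atp6v0b, a subunit of the proton pump of lysosomes, read 11.38 and 13.00, with differences of 0.98 to 1.62 over its 3 detected probe sets. Both genes were higher on the 4 ritonavir arrays than on the ethanol and tenofovir arrays. Got1, the cytosolic aspartate aminotransferase, differed by 1.53, and Gpd2, the mitochondrial glycerol phosphate dehydrogenase, by 1.32, or 1.08 to 1.39 over its 3 detected probe sets, while Gpd1, its cytosolic counterpart, differed by -1.44.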
